A study of Rattus norvegicus with 16 samples.

Results

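The genes described here are the plasma membrane and other solute carriers of rat hepatocytes, 226 of the 20395 genes tested. They were chosen by name and detection, with earlier results of these data known. The rule took every rat gene whose symbol begins with Slc and a digit, apart from the mitochondrial Slc25 family and Slc10a1, Slc27a5, Slc7a11, Slc2a2 and Slc40a1. A probe had to be well above background in 6 or more of the 32 channels of 16 arrays. Treated and untreated channels both counted, so a carrier could enter through a rise from background. The array had a named probe for 279 such genes, and 53 did not pass, 23 of them with no channel above background. Of the 226 carriers, 179 were above background in all 32 channels and 14 in fewer than 16. At the edge of the filter, Slc1a1, Slc1a6, Slc22a3 and Slc6a21 entered with 6 channels, while Slc18a2, Slc24a1 and Slc7a13 stayed out with 5.

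The cells were primary hepatocytes of male Sprague Dawley rats in Williams Medium E. Starting 48 hours after plating, cultures received 100 µM SQ1, 30 µM pravastatin, an inhibitor of HMG-CoA reductase, or no drug, for 48 hours. Each array compared 1 treated with 1 untreated culture in different dyes, A555 and A647, with 8 arrays per drug and the dyes exchanged on 4 of them. The design text calls these biological replicates and gives no animal for any culture. Same-numbered arrays of the drugs used the same untreated culture, going by the control numbers the submitters gave their scanner files, so the drugs' values share their controls.

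Solute carriers move small molecules across membranes, either down a gradient or coupled to sodium, protons or an exchanged solute. In hepatocytes they take up sugars, amino acids, organic cations and anions and vitamins from blood, release glucose, lactate and ketone bodies, and fill the Golgi, the endoplasmic reticulum and lysosomes. The untreated cultured hepatocyte is the baseline here, so every value is a log2 ratio of treated over untreated RNA within an array. A ratio of 1 on this scale is a doubling.

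Arrays had a median signal of 588 to 663 in the A555 channel and 790 to 1076 in the A647 channel, and no spot was saturated. The arrays fell into 2 series by the scan day in the scanner files, called scan series here. No sample label names them, so differences of culture, hybridisation and scan between the series cannot be told apart. Each of the 4 slides held 1 drug and 1 series, so that drug and slide cannot be told apart. Replicate 1 of pravastatin stood apart from the other 7 arrays. It had 27 spots flagged non-uniform, and no other array had more than 7. Many of its carrier ratios lay close to 0, such as Slc16a8 (-2.28e-05), Slc22a2 (0.00036) and Slc1a2 (-0.00044). It was also the pravastatin array nearest 0 for Slc43a1, Slc16a6, Slc13a3, Slc22a5 and Slc24a3, whose ranges are given below. The cause was not tested. Values without it are given where a call changes and for some other carriers. The deposited value table holds in all 16 columns the other drug's ratios, those of the array with the same replicate number. Drug names below follow the sample labels and their scanner files, and every drug name would exchange if the table's columns were right.

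The label of the cells was checked on 10 hepatocyte markers, all of them well above background in all 16 untreated and all 16 treated channels. All 10 fell with SQ1 (median -0.59, highest array median -0.19), Cyp2c11 most (-2.14). Before dye adjustment, Ttr was below 0 on only 4 of 8 SQ1 arrays, Alb and Tf on 6, and the others on 7 or 8. With pravastatin 7 fell and 2 rose (median -0.26), with array medians of -0.57 to 0.13. Of those called, Alb, Tf and Ttr had their fitted sign on only 4 of 8 pravastatin arrays before dye adjustment. Serpina1 had it on 6 and the others on 8. Markers of other liver cells were present in the untreated cultures too, the macrophage, stellate and endothelial ones measured in all 16 channels. All 14 macrophage markers fell with SQ1, with array medians of -0.74 to -0.38, and all 14 fell with pravastatin, with array medians of -0.98 to -0.61. All 10 stellate and fibroblast markers fell with SQ1 (array medians -0.83 to -0.28) and 4 with pravastatin (-0.24 to -0.05). Of 5 endothelial markers measured of 9, 4 fell with SQ1 and 2 with pravastatin. Of 6 cholangiocyte markers measured of 7, 1 rose and 3 fell with SQ1, and 3 rose and 1 fell with pravastatin. Beside these marker counts, 32.7% of all genes rose and 31.2% fell with SQ1, and 19.4% rose and 19.7% fell with pravastatin. In RNA from whole cultures, fewer cells of a type and less RNA per cell cannot be told apart. The part of these cells in the carriers' values was not tested.

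SQ1 changed more carriers than it left within the spread of the arrays. With limma's moderated test and an adjusted p under 0.05, 86 of 226 carriers (38.1%) were higher, beside 32.7% of all genes, and 62 (27.4%) were lower, beside 31.2% of all genes. The median carrier stood at 0.031, against 0.0077 for all genes. Changes of at least 1.5-fold were called for 11 carriers upward, where 3.05% of all genes passed, and for 17 downward, where 4.43% passed. With the background model used here, the largest fall was 5.63-fold, in Slc37a4, and the largest rise 3.48-fold, in Slc16a6.

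Pravastatin changed fewer carriers. It raised 50 (22.1%), beside 19.4% of all genes, and lowered 53 (23.5%), beside 19.7% of all genes, with a median of -0.0079. Within the first scan series alone 26 were called higher and 35 lower, beside 1854 and 2125 of all 20395 genes. At 1.5-fold, 1 carrier passed upward, where 0.981% of all genes did, and 5 passed downward, where 0.981% did. The single riser was Slc43a1 and the 5 fallers were Slc2a4, Slc2a5, Slc23a1, Slc28a2 and Slc27a2.

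**Figure D1:**
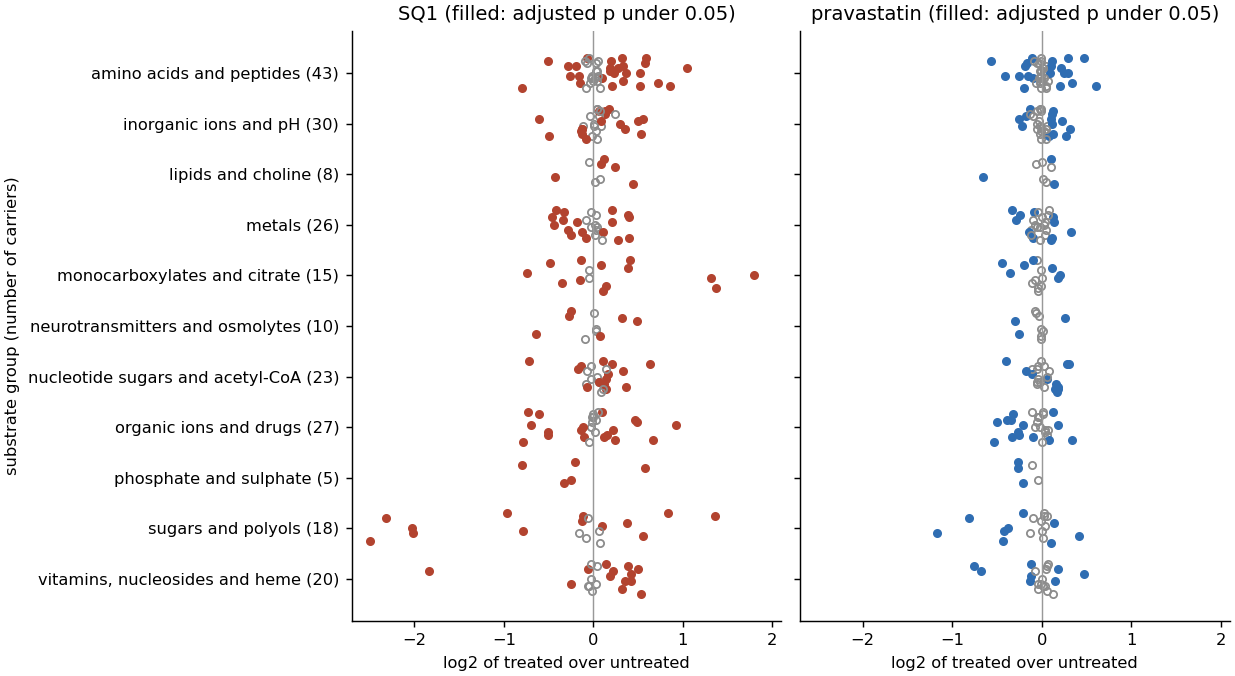
Fitted log2 ratios of treated over untreated (horizontal axis) for the solute carriers, 1 point per gene, in rows by substrate, for SQ1 (left) and pravastatin (right); filled points passed an adjusted p of 0.05 and open points did not. The points farthest left under SQ1 lie among sugar carriers, led by Slc37a4 at -2.49, and the points farthest right among monocarboxylate carriers, led by Slc16a6 at 1.80; no pravastatin point lies beyond -1.17 or 0.60.

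Among 18 carriers of sugars and polyols, 8 fell (44.4%) and 5 rose (27.8%) with SQ1, and 6 fell (33.3%) and 3 rose (16.7%) with pravastatin. Shares here and in the groups that follow stand beside 32.7% higher and 31.2% lower of all genes with SQ1, and 19.4% and 19.7% with pravastatin. Of the 8 falls with SQ1, 6 were at least 1.5-fold. The fallers included the glucose-6-phosphate carrier of the endoplasmic reticulum, fructose and glucose carriers of the plasma membrane and a Golgi sugar carrier, and the risers included GLUT1.

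Slc37a4 is the endoplasmic reticulum translocase that brings glucose-6-phosphate to glucose-6-phosphatase, the last step of glucose release. Its ratios with SQ1 ran from -2.87 on the lowest array through a median of -2.49 to -2.13 on the highest. With pravastatin the lowest array read -0.73, the median -0.35 and the highest -0.30. Every array of both drugs was below 0, and no SQ1 array overlapped a pravastatin array. The fitted changes were -2.49 with SQ1 (SE 0.073, adjusted p = 3.89e-15) and -0.43 with pravastatin (SE 0.073, adjusted p = 0.000148).

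Slc2a5, the fructose carrier GLUT5, ranged over the SQ1 arrays from -2.72 through a median of -2.32 to -2.07. Over the pravastatin arrays it ranged from -1.22 through -0.78 to -0.61. All 16 arrays showed a decrease, again without overlap between drugs. The fit gave -2.32 for SQ1 (adjusted p = 8.53e-16) and -0.81 for pravastatin (adjusted p = 9.98e-09), each with an SE of 0.061.

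Slc2a4, the insulin-responsive glucose carrier GLUT4, ranged with SQ1 from -2.41 through -2.02 to -1.61, and with pravastatin from -1.55 through -1.25 to -0.19. The array at -0.19 was replicate 1. It fell by 2.01 with SQ1 (SE 0.12, adjusted p = 5.98e-11) and by 1.17 with pravastatin (adjusted p = 4.77e-07), the largest pravastatin fall among the carriers, and by 1.32 with pravastatin when replicate 1 was left out. With Agilent's processed signals in place of the background model used here, it fell by 3.53 with SQ1 and by 1.94 with pravastatin. That SQ1 fall is larger than the fall of Slc37a4 in any setting (-2.75 at the lowest), so the leading faller depends on the signal used.

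Slc45a3, a proton-coupled sugar carrier, ranged with SQ1 from -2.50 through -2.17 to -1.33 and with pravastatin from -0.67 through -0.48 to 0.29. It was low on all 8 SQ1 arrays and above 0 on 1 pravastatin array. With SQ1 it fell by 2.03 (SE 0.13, adjusted p = 1.27e-10). The pravastatin fall of 0.37 (adjusted p = 0.0263) was not called within the first scan series (-0.13, adjusted p = 0.126) or with the processed signals (adjusted p = 0.0617). Its 2 probes both fell with SQ1, the other by 1.13.

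Slc50a1, a glucose carrier of the Golgi and plasma membrane, read -1.15 on its lowest SQ1 array, -0.98 at the median and -0.74 on the highest. It fell by 0.97 (SE 0.032, adjusted p = 2.41e-14) with SQ1 and by 0.21 (adjusted p = 6.3e-05) with pravastatin. Slc2a12, another facilitative glucose carrier, fell by 0.78 and by 0.42, and its second probe by 0.25 with SQ1 and 0.15 with pravastatin.

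Slc2a13, the proton-coupled myo-inositol carrier, rose with SQ1 on every array, from 1.14 through 1.44 to 1.5. Its pravastatin arrays lay on both sides of 0, from -0.19 through 0.01 to 0.42. The SQ1 change was 1.36 (SE 0.052, adjusted p = 1.5e-13). The pravastatin value was 0.06 (adjusted p = 0.381), positive in the first scan series (0.22, adjusted p = 0.00094) and negative in the second (-0.10).

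Slc2a1, the basal glucose carrier GLUT1, ranged with SQ1 from 0.37 through 0.80 to 1.22, and with pravastatin from -0.35 through 0.05 to 0.22. SQ1 raised it by 0.84 (SE 0.072, adjusted p = 1.07e-08), and no SQ1 array overlapped a pravastatin array. Pravastatin gave 0.02 (adjusted p = 0.855), with -0.12 in the first series and 0.16 in the second (adjusted p = 0.0112). The lysosomal family member Slc2a6 rose with both drugs, by 0.55 and 0.41. The urate carrier Slc2a9 passed with neither, at -0.08 (adjusted p = 0.146) and 0.02 (adjusted p = 0.825); with the replicate number as a fixed block its SQ1 value passed (adjusted p = 0.0427).

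**Figure D2:**
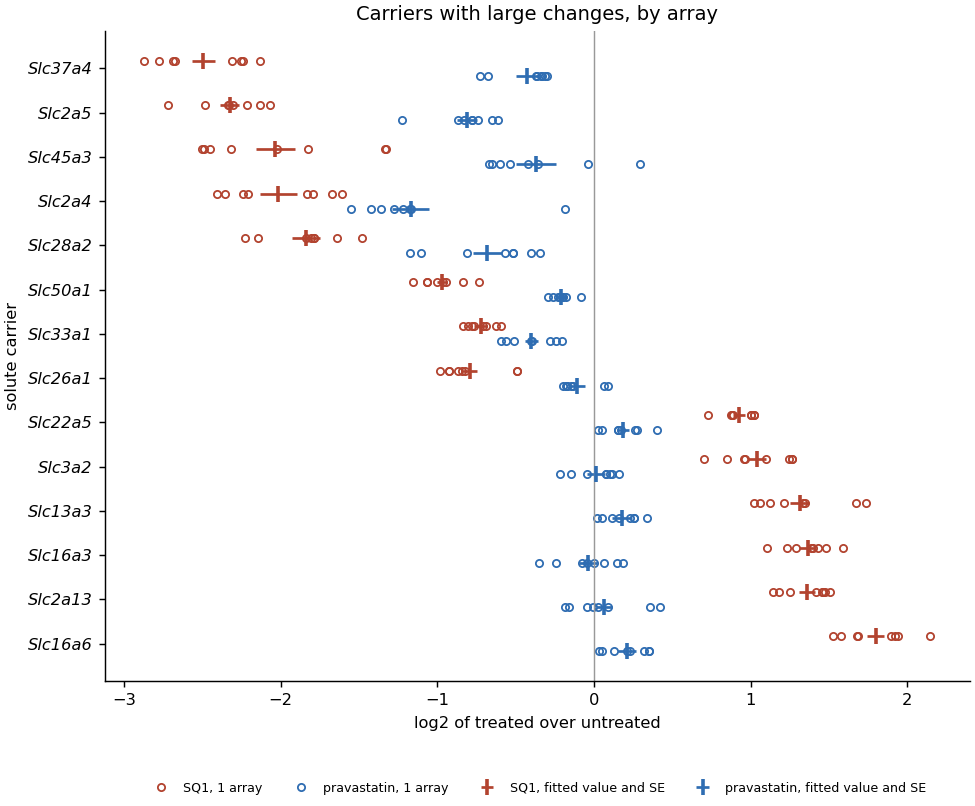
Log2 ratios of treated over untreated (horizontal axis) on each of the 8 SQ1 and 8 pravastatin arrays (open circles) for 14 carriers, with the fitted value (tick) and its standard error (bar). Slc37a4, Slc2a5, Slc16a6 and Slc16a3 keep the drugs apart on every array, while for Slc33a1 the lowest pravastatin array (-0.60) lies below the highest SQ1 array (-0.59).

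Of 15 carriers of monocarboxylates and citrate, 8 rose (53.3%) and 5 fell (33.3%) with SQ1, and 3 rose (20%) and 4 fell (26.7%) with pravastatin. The 3 largest SQ1 rises among all solute carriers outside the sugar group were here.

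Slc16a6, which exports ketone bodies from liver cells, was the carrier with the largest rise. The SQ1 arrays ran from 1.53 through 1.79 to 2.15 and the pravastatin arrays from 0.03 through 0.22 to 0.35. Every array of both drugs was above 0 and the drugs did not overlap. The fitted rise was 1.80 with SQ1 (SE 0.056, adjusted p = 9.63e-15) and 0.21 with pravastatin (adjusted p = 0.00608), the latter not called within the first series (0.11, adjusted p = 0.0773).

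Slc16a3, the lactate exporter MCT4, ranged with SQ1 from 1.1 through 1.39 to 1.59 and with pravastatin from -0.35 through -0.02 to 0.18. SQ1 raised it by 1.36 (SE 0.056, adjusted p = 3.59e-13). The pravastatin value of -0.04 did not pass (adjusted p = 0.634). Slc13a3, a sodium-coupled dicarboxylate carrier, ranged with SQ1 from 1.02 through 1.27 to 1.73 and rose by 1.31 (SE 0.061, adjusted p = 2.17e-12). It rose by 0.18 with pravastatin (adjusted p = 0.0262), which was lost when arrays were centred on the median in place of loess (adjusted p = 0.104).

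Other members of the same families went down. Slc16a4 fell by 0.74 with SQ1 (SE 0.052) and by 0.35 with pravastatin. Slc13a5, which brings citrate into hepatocytes, fell by 0.49 (adjusted p = 1.53e-06) and 0.44 (adjusted p = 1.62e-05). Its SQ1 arrays ran from -0.75 to -0.24 and its pravastatin arrays from -0.71 to -0.11, which overlap. Slc16a1, the lactate carrier MCT1, fell by 0.15 with SQ1 (adjusted p = 0.00877), a call lost with median centring (-0.02). Its pravastatin value of -0.08 did not pass (adjusted p = 0.201) and passed with the replicate number as a fixed block (adjusted p = 0.0357).

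The largest group, 43 carriers of amino acids and peptides, had 18 rises (41.9%) and 8 falls (18.6%) with SQ1 and 11 rises (25.6%) and 9 falls (20.9%) with pravastatin. Its median was 0.045 with SQ1 and -0.0036 with pravastatin. The SQ1 fits placed 3 of the rises and 1 of the falls at 1.5-fold or more. The risers included the shared heavy chain of the heteromeric exchangers and carriers of cationic and neutral amino acids.

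Slc3a2 encodes the 4F2 heavy chain, which carries the light chains Slc7a5 and Slc7a6 to the surface. With SQ1 its ratio was 0.70 on the lowest array, 1.03 at the median and 1.26 on the highest. With pravastatin it was -0.22, 0.08 and 0.16. It rose by 1.04 with SQ1 (SE 0.057, adjusted p = 2.11e-11), without overlap with the pravastatin arrays, where the fit gave 0.02 (adjusted p = 0.863). In the first scan series the pravastatin value was -0.08 and in the second 0.11 (adjusted p = 0.0242). Of its light chains, Slc7a5, the large neutral amino acid exchanger, rose by 0.37 with SQ1 and 0.26 with pravastatin, and Slc7a6 by 0.32 and 0.30. Among the other light chains, added after their values were seen, Slc7a7 stood at 0.05 with SQ1 (adjusted p = 0.246) and fell by 0.26 with pravastatin, and Slc7a8 passed with neither drug, at -0.10 and -0.09.

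Slc7a3, a cationic amino acid carrier, ranged with SQ1 from 0.72 through 0.80 to 1.04 and with pravastatin from 0.01 through 0.24 to 0.42. It rose by 0.85 (SE 0.048, adjusted p = 2.88e-11) and 0.20 (adjusted p = 0.00229), the second not called within the first scan series (0.07, adjusted p = 0.34). The related Slc7a2, the arginine carrier of hepatocytes, rose by 0.27 with SQ1 and stood at 0.01 with pravastatin (adjusted p = 0.807). Slc1a4, a neutral amino acid exchanger, ranged from 0.51 through 0.78 to 0.85 with SQ1 and rose by 0.72 (SE 0.044, adjusted p = 9.87e-11), and by 0.34 with pravastatin (adjusted p = 8.36e-06).

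Several members of this group rose with both drugs. Slc43a1, a large neutral amino acid carrier, ranged with pravastatin from 0.09 through 0.66 to 0.80 and with SQ1 from 0.39 through 0.51 to 0.75. It rose by 0.60 with pravastatin (SE 0.049, adjusted p = 2.49e-08), by 0.67 without replicate 1, and by 0.52 with SQ1; the difference between the drugs did not pass (-0.09, adjusted p = 0.369). Slc15a1, the proton-coupled peptide carrier PEPT1, rose by 0.58 with SQ1 and 0.47 with pravastatin, and each of its 3 probes was higher, by at least 0.41 and 0.27.

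The falls were led by Slc43a3, a carrier of purine nucleobases that its family places in this group, at -0.80 with SQ1 (SE 0.051) and -0.20 with pravastatin. Slc15a3, a peptide and histidine carrier of lysosomes, fell with both drugs. Its SQ1 arrays ran from -0.85 through -0.50 to -0.20 and its pravastatin arrays from -0.86 through -0.57 to -0.07, and the fitted falls were 0.51 and 0.57 (adjusted p = 1.89e-05 and 1.94e-05). The macrophage metal carrier Slc11a1, singled out after its values were seen, fell by 0.42 and 0.33. The macrophage markers fell with both drugs as given above, and their part in these falls was not tested. Slc15a2, a second peptide carrier, fell by 0.17 and 0.41; it was above background on 4 of 8 pravastatin-treated channels, and with the processed signals it fell by 1.63 with pravastatin.

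The family of sodium-coupled glutamine and alanine carriers went both ways. Slc38a3 fell by 0.26 with SQ1 and 0.15 with pravastatin. Slc38a4 rose by 0.20 and 0.12. The lysosomal members Slc38a7 and Slc38a9, named after their values were seen, rose by 0.58 and 0.33 with SQ1. Slc38a2 fell by 0.07 and 0.11, but its SQ1 value was 0.08 and not called with median centring. The glycine carrier Slc6a9 stood at -0.07 with SQ1 (adjusted p = 0.0993), called with the fixed replicate block (adjusted p = 0.00545), and fell by 0.17 with pravastatin. The cystine carrier subunit Slc3a1 fell by 0.15 with SQ1 and stood at -0.06 with pravastatin (adjusted p = 0.251). The glutamate carrier Slc1a1, dim on this array, passed with neither drug, at 0.03 and -0.05; with the processed signals its pravastatin value was -0.60 (adjusted p = 0.0106).

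Of 20 carriers of vitamins, nucleosides and heme, 10 rose (50%) and 3 fell (15%) with SQ1, and 3 rose (15%) and 5 fell (25%) with pravastatin. The largest fall of the group was in Slc28a2, the concentrative purine nucleoside carrier. Its SQ1 arrays ran from -2.23 through -1.79 to -1.48 and its pravastatin arrays from -1.17 through -0.54 to -0.35, without overlap. It fell by 1.84 with SQ1 (SE 0.091, adjusted p = 5.07e-12) and 0.68 with pravastatin (adjusted p = 1.13e-05). A second probe gave -0.54 and -0.21, and the mean of both probes -1.19 with SQ1.

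Of the equilibrative nucleoside carriers, only Slc29a2 among the 4 measured rose with both drugs. Slc29a1 rose by 0.32 with SQ1 and stood at -0.04 with pravastatin (adjusted p = 0.288). Slc29a2 ranged from 0.26 through 0.41 to 0.58 with SQ1 and from 0.06 through 0.50 to 0.72 with pravastatin, and rose by 0.42 (adjusted p = 1.11e-05) and 0.47 (adjusted p = 9.37e-06). The folate carrier Slc19a1 rose by 0.14 with SQ1, and its pravastatin value of 0.07 (adjusted p = 0.154) passed with the fixed replicate block (adjusted p = 0.0389) and without replicate 1 (0.10, adjusted p = 0.0392). The biotin and pantothenate carrier Slc5a6 rose by 0.22 with SQ1 and stood at -0.08 with pravastatin (adjusted p = 0.101; with the fixed replicate block, adjusted p = 0.00737). The lysosomal carrier Slc46a3 stood at -0.02 with SQ1 (adjusted p = 0.588) and fell by 0.11 with pravastatin.

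Among 27 carriers of organic ions and drugs, 9 rose and 9 fell (33.3% each) with SQ1, while 4 rose (14.8%) and 10 fell (37%) with pravastatin. Slc22a5, the sodium-coupled carnitine carrier, ranged with SQ1 from 0.73 through 0.94 to 1.02 and with pravastatin from 0.03 through 0.16 to 0.40. It rose by 0.93 (SE 0.039, adjusted p = 4.87e-13) and 0.19 (adjusted p = 0.000844). Slc22a4, its close relative, rose by 0.25 and 0.34. Slc17a5, which exports sialic acid from lysosomes, rose by 0.66 with SQ1 (SE 0.032) and by 0.09 with pravastatin, the latter lost without replicate 1 (adjusted p = 0.0836). Slc10a2, the ileal type of bile acid carrier, ranged with SQ1 from -1.33 through -0.64 to -0.44 and fell by 0.74 (SE 0.070, adjusted p = 3.65e-08); its pravastatin value was -0.11 (adjusted p = 0.246). The organic anion carriers Slc22a7 and Slc22a8 moved little: Slc22a7 fell by 0.11 with SQ1, lost with median centring (-0.04), and Slc22a8 rose by 0.12 with pravastatin.

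In the group of 5 phosphate and sulphate carriers, 4 fell (80%) and 1 rose (20%) with SQ1, and 3 fell (60%) with pravastatin. Slc26a1, a sulphate and oxalate exchanger of hepatocytes, ranged with SQ1 from -0.98 through -0.86 to -0.49 and fell by 0.79 (SE 0.047, adjusted p = 5.85e-11). With pravastatin it stood at -0.11 (adjusted p = 0.0866; with the fixed replicate block, adjusted p = 0.0031). The sodium-phosphate carrier Slc20a1 fell by 0.21 and 0.26. Slc20a2 fell by 0.25 with SQ1 and stood at -0.04 with pravastatin (adjusted p = 0.32).

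Metal carriers, 26 in all, had 7 rises (26.9%) and 10 falls (38.5%) with SQ1 and 5 rises (19.2%) and 6 falls (23.1%) with pravastatin. No call in the group was as large as 1.5-fold. The group ran from -0.46 to 0.40 with SQ1 and from -0.33 to 0.32 with pravastatin. Slc39a14, an importer of zinc, iron and manganese, fell by 0.33 with SQ1 and stood at -0.04 with pravastatin (adjusted p = 0.385). The manganese exporter Slc30a10 fell by 0.28 with SQ1 and stood at -0.11 with pravastatin (adjusted p = 0.0908; with the fixed replicate block, adjusted p = 0.00129). The copper importer Slc31a1 rose by 0.21 and 0.14. Fitted in the second scan series alone, the SQ1 value was 0.07 (adjusted p = 0.145) and the pravastatin value 0.07 (adjusted p = 0.185), neither called. The pravastatin call also ended without replicate 1 (adjusted p = 0.0588). The zinc importer Slc39a5 rose by 0.32 with pravastatin and by 0.10 with SQ1, where the fixed replicate block ended the call (adjusted p = 0.0553), as did the random block (adjusted p = 0.0738).

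The iron carrier Slc11a2 stood at -0.03 with SQ1 (adjusted p = 0.615) and -0.05 with pravastatin (adjusted p = 0.479). Its probes did not give 1 direction with SQ1, at -0.03 and 0.23, and the mean of both passed at 0.10 (adjusted p = 0.00224). Slc30a1, the zinc exporter, stood at -0.03 with SQ1 and fell by 0.08 with pravastatin, a call lost without replicate 1 (adjusted p = 0.119).

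The 30 carriers of inorganic ions and protons had 10 rises (33.3%) and 7 falls (23.3%) with SQ1 and 9 rises (30%) and 4 falls (13.3%) with pravastatin. The chloride cotransporter Slc12a2 rose by 0.18 with SQ1, and the anion exchanger Slc4a3 by 0.35 and 0.32. Of 8 lipid and choline carriers, 4 rose (50%) and 1 fell (12.5%) with SQ1, and 2 rose (25%) and 1 fell (12.5%) with pravastatin. The faller was Slc27a2, a fatty acid carrier and acyl-CoA synthetase. It ranged from -0.94 through -0.62 to -0.34 with pravastatin and fell by 0.66 (SE 0.051, adjusted p = 1.56e-08), against 0.43 with SQ1.

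Of 23 carriers of nucleotide sugars and acetyl-CoA, which supply the Golgi and endoplasmic reticulum, 10 rose (43.5%) and 4 fell (17.4%) with SQ1 and 8 rose (34.8%) and 3 fell (13%) with pravastatin. Slc33a1, the acetyl-CoA carrier of the endoplasmic reticulum, ranged with SQ1 from -0.83 through -0.74 to -0.59 and fell by 0.72 (SE 0.040, adjusted p = 2.8e-11), and by 0.40 with pravastatin. The UDP-galactose carrier Slc35a2 rose by 0.20 and 0.31, and Slc35e3 by 0.64 and 0.28. Slc35a3 passed with neither drug, at 0.07 and -0.02. With the fixed replicate block its SQ1 value passed (adjusted p = 0.0443). With the replicate number as a random block, none of the carriers said here to pass with the fixed block did. Of 10 carriers of neurotransmitters, taurine, betaine and creatine, 3 rose and 3 fell (30% each) with SQ1 and 1 rose (10%) and 2 fell (20%) with pravastatin; Slc6a13, which takes up GABA and taurine, rose by 0.32 and 0.26. The remaining gene, Slc7a6os, shares the Slc prefix without being a carrier and rose by 0.16 and 0.14.

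Slc1a6 was not well above background on any untreated channel and passed the filter only through 4 SQ1 and 2 pravastatin channels, so no rise is read from it. The counts above still include it among the 86 SQ1 rises of all carriers and the 18 of amino acid carriers. Slc16a14 was above background in 8 channels, 5 of them SQ1-treated, and would not have passed without those. It is included among the 8 SQ1 rises of monocarboxylate carriers and in the direct comparison below, but no rise is read from it either. On the pravastatin arrays Slc35g2 was above background in 2 treated and 0 untreated channels, and replicate 3 read 0.75. It is included among the 50 pravastatin rises of all carriers and the 8 of nucleotide sugar carriers, but no pravastatin rise is read from it.

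The direct comparison of the drugs took the signed difference, SQ1 minus pravastatin, at the doses used, which differ. Higher with SQ1 can thus mean a fall with pravastatin only. Slc12a8, picked after its values were seen, stood at 0.07 with SQ1 (not called) and -0.18 with pravastatin, and was called higher. This comparison called 66 carriers (29.2%) higher with SQ1, beside 18.5% of all genes, and 38 (16.8%) lower, beside 19.5% of all genes. Among the groups, amino acid carriers had 14 higher and 3 lower of 43, monocarboxylate carriers 8 higher and 2 lower of 15, vitamin and nucleoside carriers 8 higher and 3 lower of 20, and sugar carriers 4 higher and 8 lower of 18. The largest differences upward were 1.59 for Slc16a6 (SE 0.080), 1.40 for Slc16a3 (SE 0.079) and 1.30 for Slc2a13 (SE 0.074). The largest downward were -2.07 for Slc37a4 (SE 0.10), -1.66 for Slc45a3 (SE 0.18) and -1.51 for Slc2a5 (SE 0.086). In each of these 6 genes the 8 SQ1 arrays lay beyond all 8 pravastatin arrays.

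Some carriers had opposite directions with the drugs. Those shown fall under the naming rule given below. Outside that rule, Slc34a2, picked after its values were seen, rose by 0.57 with SQ1 and fell by 0.26 with pravastatin. Slc23a1, the sodium-coupled ascorbate carrier, ranged with SQ1 from 0.21 through 0.37 to 0.60 and with pravastatin from -0.95 through -0.84 to -0.46. It rose by 0.39 with SQ1 (SE 0.042, adjusted p = 1.83e-07) and fell by 0.76 with pravastatin (adjusted p = 1.23e-10), a difference of 1.15 (SE 0.059, adjusted p = 5.96e-11). Its values kept their signs in both scan series, 0.38 and 0.41 with SQ1 and -0.66 and -0.86 with pravastatin.

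The same held for related organic anion carriers of family 17, which move urate and phosphate. Slc17a3 ranged from 0.34 through 0.51 to 0.57 with SQ1 and from -0.67 through -0.49 to -0.35 with pravastatin, with fitted values of 0.48 and -0.50 and a difference of 0.99 (adjusted p = 3.7e-12). Slc17a1 ranged from 0.27 through 0.38 to 0.73 and from -0.52 through -0.37 to -0.25, with fitted values of 0.47 and -0.38. Slc17a2 rose by 0.12 with SQ1, not called within the second series (0.07, adjusted p = 0.284), and fell by 0.33 with pravastatin. No array of one drug overlapped the other in these genes.

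Slc24a3, a sodium, calcium and potassium exchanger, went the other way. Its SQ1 arrays ran from -0.66 through -0.50 to -0.32 and its pravastatin arrays from 0.08 through 0.29 to 0.43. It fell by 0.49 with SQ1 (adjusted p = 6.05e-09) and rose by 0.27 with pravastatin (adjusted p = 3.85e-05). The taurine carrier Slc6a6 was the most variable of these genes, at 0.08 to 0.95 with SQ1 and -0.82 to 0.55 with pravastatin. Its rise with SQ1 was 0.48 (SE 0.11, adjusted p = 0.00108). Its fall with pravastatin, 0.30 (adjusted p = 0.0466), was not called in the first series (-0.13), with the processed signals or without the filter on dim probes.

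**Figure D3:**
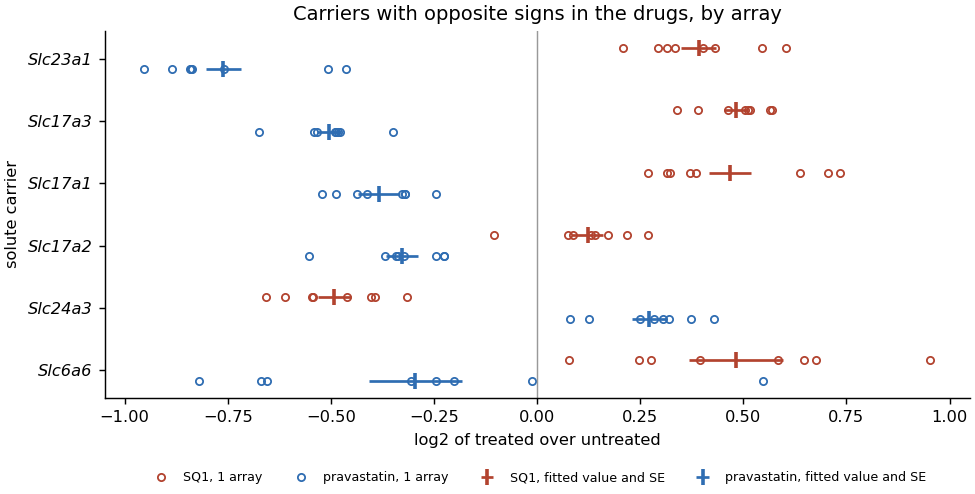
Log2 ratios of treated over untreated (horizontal axis) on each array (open circles), with the fitted value (tick) and its standard error (bar), for 6 carriers whose fitted values have opposite signs with SQ1 and pravastatin. The 8 arrays of each drug stay on their own side of 0 for Slc23a1, Slc17a3, Slc17a1 and Slc24a3, whereas 1 SQ1 array of Slc17a2 lies below 0 and 1 pravastatin array of Slc6a6 reads 0.55.

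The 2 scan series were also fitted separately. Slc37a4 read -2.23 in the first series and -2.75 in the second with SQ1, Slc45a3 -1.63 and -2.44, and Slc2a4 -1.73 and -2.30. Among the rises, Slc16a6 read 1.62 and 1.98, Slc13a3 1.1 and 1.52, and Slc22a5 0.91 and 0.95. With pravastatin, Slc28a2 read -0.45 and -0.91, and Slc29a2 0.27 and 0.68. Some calls from all arrays were not made within a series. In the first, the SQ1 values of Slc15a2, Slc3a1, Slc19a1, Slc22a7 and Slc38a2 and the pravastatin values of Slc6a9, Slc30a1, Slc38a2 and Slc46a3 missed the threshold (adjusted p of 0.0913 for Slc22a7 to 0.356 for Slc46a3). In the second, the SQ1 values of Slc16a1, Slc38a2 and Slc39a5 and the pravastatin values of Slc17a5, Slc22a8, Slc30a1 and Slc38a4 did (0.0927 for Slc38a2 to 0.303 for Slc39a5). Other values, not called over all arrays, were called within 1 series. With pravastatin these included Slc2a13 in the first (0.22, adjusted p = 0.00094). In the second they included Slc2a1 (0.16, 0.0112), Slc26a1 (-0.17, 0.00113), Slc30a10 (-0.22, 0.00976) and Slc11a2 (-0.11, 0.0181). With SQ1, Slc11a2 (-0.17, 0.000785) and Slc6a9 (-0.15, 0.000628) were called in the second. Whether the series differed was not tested.

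**Figure D4:**
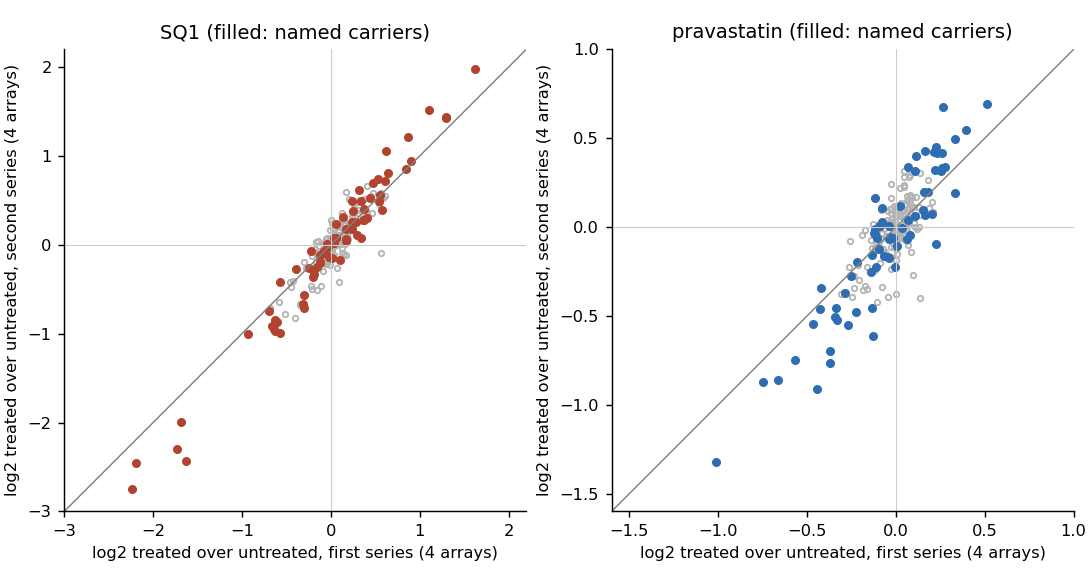
Log2 ratios of treated over untreated fitted within the first scan series (horizontal axis) and the second (vertical axis), 4 arrays each, for all carriers, with SQ1 on the left and pravastatin on the right. Filled points are carriers chosen for naming, the line marks equal values and the panels' axes differ in range. Slc16a6 lies at 1.62 and 1.98 with SQ1 and Slc2a4 at -1.01 and -1.32 with pravastatin, while Slc4a4, an open point, lies at 0.57 and -0.09 with SQ1.

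Genes that serve solute transport without being carriers were counted from a separate list of 26, of which 23 were measured. With SQ1, 8 rose (34.8%) and 10 fell (43.5%), beside 32.7% and 31.2% of all genes, and with pravastatin 6 rose and 6 fell (26.1% each), beside 19.4% and 19.7%. Among 6 sodium pump subunits, 4 fell and 1 rose with SQ1, and 1 fell and 1 rose with pravastatin. Among 8 accessory and trafficking partners, 4 rose and 3 fell with SQ1 and 2 rose and 3 fell with pravastatin; Nherf1, a scaffold of apical carriers, rose by 0.37 with SQ1, and Emb, a partner of monocarboxylate carriers, fell by 0.53 with pravastatin. Among 6 kinases that act on carriers, 3 rose and 1 fell with SQ1 and 3 rose with pravastatin, led by Sgk2 at 1.68 and 1.08. Of the 3 zinc binding partners, 2 fell with each drug. Mt2A fell by 0.33 with SQ1, below 0 on only 4 of 8 arrays before dye adjustment, and by 0.89 with pravastatin, below 0 on all 8. Mt1, the other, was below 0 on only 4 of 8 arrays of each drug.

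The bases upstream of the start are shown for the carriers with the 3 largest rises and falls with each drug that RefSeq's promoter table (assembly GRCr8) holds, so that members which moved together can be read side by side. Of the 226 carriers, 176 had an entry. Each line gives 250 bases before the annotated start, 5′ to 3′ on the gene's strand, with a matched motif in capitals. Slc37a4 had 2 annotated starts, of which only the first listed is shown. The motifs searched on both strands were the E-box CACGTG, the sterol response element TCACNCCAC, the cyclic AMP response element TGACGTCA, the ATF4 composite element TGATGNAA, the antioxidant response element TGACNNNGC and the direct repeat AGGTCANAGGTCA.
The 3 carriers that fell most with SQ1 were Slc37a4 (chr8:53619775-53620024, plus strand), Slc2a5 (chr5:165865929-165866178, plus strand) and Slc45a3 (chr13:45959217-45959466, plus strand, antioxidant motif 185 bases before the start).
Slc37a4: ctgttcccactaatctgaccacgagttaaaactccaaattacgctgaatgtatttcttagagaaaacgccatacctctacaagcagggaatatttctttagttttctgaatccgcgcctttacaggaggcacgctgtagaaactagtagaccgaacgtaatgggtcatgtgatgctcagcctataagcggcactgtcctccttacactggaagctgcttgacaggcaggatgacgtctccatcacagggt
Slc2a5: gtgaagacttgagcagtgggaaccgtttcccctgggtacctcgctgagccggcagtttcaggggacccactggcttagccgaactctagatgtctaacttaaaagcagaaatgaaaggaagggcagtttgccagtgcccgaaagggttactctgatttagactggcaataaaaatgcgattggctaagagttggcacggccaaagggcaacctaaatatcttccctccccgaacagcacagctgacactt
Slc45a3: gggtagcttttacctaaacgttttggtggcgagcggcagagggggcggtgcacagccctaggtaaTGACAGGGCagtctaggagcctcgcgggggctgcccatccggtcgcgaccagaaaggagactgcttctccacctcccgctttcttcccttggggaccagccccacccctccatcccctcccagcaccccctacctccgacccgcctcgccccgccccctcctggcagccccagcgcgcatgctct
The SQ1 risers in the table were Slc16a3 (chr10:106712078-106712327, plus strand) and Slc2a13 (chr7:124606147-124606396, minus strand).
Slc16a3: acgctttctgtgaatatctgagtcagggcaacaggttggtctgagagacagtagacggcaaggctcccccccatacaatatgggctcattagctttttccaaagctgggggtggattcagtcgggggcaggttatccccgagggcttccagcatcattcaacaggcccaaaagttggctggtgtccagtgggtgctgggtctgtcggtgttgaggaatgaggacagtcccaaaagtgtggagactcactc
Slc2a13: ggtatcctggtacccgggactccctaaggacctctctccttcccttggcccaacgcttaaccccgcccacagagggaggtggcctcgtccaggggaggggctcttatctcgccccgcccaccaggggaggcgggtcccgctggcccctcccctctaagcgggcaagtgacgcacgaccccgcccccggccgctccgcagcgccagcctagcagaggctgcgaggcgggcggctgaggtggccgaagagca
The pravastatin risers were Slc43a1 (chr3:90327072-90327321, plus strand, E-box 91 bases before the start), Slc29a2 (chr1:211757074-211757323, plus strand, E-box 161 bases before) and Slc15a1 (chr15:104949345-104949594, minus strand, antioxidant motif 240 bases before, read on the opposite strand).
Slc43a1: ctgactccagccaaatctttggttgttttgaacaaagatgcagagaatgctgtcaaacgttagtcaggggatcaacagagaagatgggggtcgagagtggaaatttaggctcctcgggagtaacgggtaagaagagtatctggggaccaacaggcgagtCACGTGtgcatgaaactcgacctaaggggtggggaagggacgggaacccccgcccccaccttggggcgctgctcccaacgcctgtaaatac
Slc29a2: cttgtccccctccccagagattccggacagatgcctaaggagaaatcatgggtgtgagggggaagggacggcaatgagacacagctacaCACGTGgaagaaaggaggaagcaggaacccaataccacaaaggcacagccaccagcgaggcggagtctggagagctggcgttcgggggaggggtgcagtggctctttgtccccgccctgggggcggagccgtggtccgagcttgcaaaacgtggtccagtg
Slc15a1: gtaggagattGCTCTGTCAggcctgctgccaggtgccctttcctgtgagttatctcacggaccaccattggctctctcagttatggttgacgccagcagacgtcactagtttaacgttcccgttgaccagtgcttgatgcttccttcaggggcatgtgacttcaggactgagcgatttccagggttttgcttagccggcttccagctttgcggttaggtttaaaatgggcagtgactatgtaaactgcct
Slc23a1 (chr18:27502486-27502735, minus strand) fell with pravastatin and rose with SQ1.
Slc23a1: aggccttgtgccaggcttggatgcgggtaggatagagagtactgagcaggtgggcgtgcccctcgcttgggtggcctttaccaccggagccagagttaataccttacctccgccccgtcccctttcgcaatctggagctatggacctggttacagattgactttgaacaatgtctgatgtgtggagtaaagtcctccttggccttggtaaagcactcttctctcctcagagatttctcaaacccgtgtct

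An E-box was found in 14.8% of the 176 carrier promoters, beside 7.81% of the promoters of all genes tested and 5.59% of all promoters in the table. The antioxidant motif was in 21.6%, beside 12.4% and 10.1%. By direction with SQ1, the E-box was in 13 of 66 promoters of risers and 6 of 46 of fallers, and the antioxidant motif in 14 of 66 and 10 of 46. With pravastatin, the E-box was in 7 of 40 and 3 of 42. The sterol element was in 4 carrier promoters (2.27%, beside 1.02% of genes tested), and the direct repeat in none. These matches describe letters in the window only.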

How the data were processed

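Per the file headers, the authors ran release 10.7.1.1 of Agilent Feature Extraction on the scanned arrays. In these files the authors deposited each spot's median signal and local background as intensity, with flags that the file headers name well above background, saturated or non-uniform outlier. The deposited value table holds log2 ratios without a stated direction; each column correlated at 0.99991 to 0.99999 with the other drug's array of that number and at 0.579 to 0.641 with its own, so it served only as an alternative. The files state build rn4, of which no coordinates are given; symbols and promoters came from RefSeq GRCr8.

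Median signals were background corrected (normexp, offset 50) and loess normalised within arrays in limma 3.58.1 (R 4.3.3, statmod 1.5.0, jsonlite 2.0.0 and release 1.17.8 of data.table), with control spots at weight 0. Of 30367 probes, 22962 passed the filter, and the brightest passing probe stood for a gene; 39 carriers had several. The model had 1 term per drug and 1 for dye, on all 16 arrays, with Benjamini-Hochberg adjustment over 20395 genes (two-sided). It was tested on simulated data. Array values in the text precede dye adjustment.

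Members and lists were chosen with earlier results of these data known. Named were the 12 largest rises and falls per drug with 1 sign on all 8 arrays, the 8 largest differences each way, and 41 measured of 44 listed hepatocyte carriers, in all 71, not all of them reported here; genes outside this rule are marked or are the leading gene of a list. Substrate groups follow textbook families. Same-numbered arrays deviated together (residual correlations 0.139 to 0.629 over 8 pairs, 5 best with their own number), so the replicate block is printed where it changes a call. The number of arrays limits precision, and no source says that cultures came from separate animals, so p-values may measure technical spread. Alternatives covered signal, centring, filter, probe, block and scan series.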

Additional observations from a re-analysis of the deposited data

Results flagged for a closer look

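In 10 of the 140 sets of 8 arrays checked for the named carriers and the carrier median, 1 array lay far from the other 7, all of them with pravastatin; chance gives about 1 in 20. Replicate 1 was that array in 7 of the 10. It read -0.19 for Slc2a4, 0.26 for Slc11a2 and 0.16 for Slc20a2, each the highest of its set. It read 0.095 for Slc43a1, 0.14 for Slc35a2, -0.24 for Slc19a1 and -0.33 for Slc30a1, each the lowest.

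The other flagged arrays were the lowest of their sets. Replicate 4 read -1.22 for Slc2a5, replicate 3 read -0.55 for Slc17a2, and replicate 6 read -0.32 for Slc3a1.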

How the results depend on the processing

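The medians of the carriers moved most between settings. Agilent's processed signals gave 0.0467 for SQ1, -0.0281 for pravastatin and 0.0427 for their difference. Median centring gave -0.0278 for pravastatin and 0.0457 for the difference. Within the first scan series, 26 carriers were called higher and 35 lower with pravastatin, beside 1854 and 2125 of all 20395 genes. There the difference had 24 carriers lower, beside 2423 of all genes, and a carrier median of 0.0397. The value table under its own labels, whose drugs are exchanged, gave 56 higher and a median of -0.0281 for SQ1, 96 higher and a median of 0.0467 for pravastatin, and 39 higher, 65 lower and a median of -0.0427 for the difference. With the replicate block as a fixed term, 93 carriers were higher and 68 lower with SQ1, 60 and 65 with pravastatin, and 75 and 51 for the difference. The random block gave 72 higher and 52 lower for the difference. Over all genes, 7760 were called for the difference without a block, 9737 with the fixed and 9750 with the random one. Under the block no count over all carriers moved by over 1.5 times.

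Of the 71 named carriers, 54 kept direction and side of the threshold with SQ1 in every alternative run and 40 with pravastatin, as did all 16 named for the difference. Signs turned with SQ1 for Slc11a2 (0.0395 with median centring, 0.102 with the mean of its probes, 0.104 in the first series), Slc30a1 (0.0233) and Slc38a2 (0.0795) with median centring, Slc6a9 in the first series (0.0118) and Slc46a3 in the second (0.00465). With pravastatin, signs turned for Slc16a3 (0.00344 with processed signals, 0.0128 in the second series) and, with median centring, Slc12a2 (0.0228), Slc20a2 (0.0122), Slc22a7 (0.0127) and Slc35a3 (0.00133). In the first series this held for Slc12a2 (0.0595), Slc3a2 (-0.0756), Slc2a1 (-0.120) and Slc11a2 (0.00658), and in the second for Slc2a13 (-0.0981), Slc2a9 (-0.0456), Slc7a2 (-0.00718), Slc22a7 (0.00829), Slc35a3 (0.0299) and Slc39a14 (0.0036). Without pravastatin replicate 1, chosen after seeing the data, Slc22a7 read 0.0015. Of these, only Slc38a2 with SQ1 had passed in the model reported. The causes were not tested.

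Carriers near background, such as Slc1a1, are limited by their low signal.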
